A study of Mus musculus with 9 samples.

Results

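The myosin light chain genes of skeletal muscle and the genes of their kinases were followed across mice trained with metformin, mice trained without it, and sedentary mice. The set was chosen by name and held 7 of the 55416 gene identifiers measured, namely the light chain genes Myl1, Myl2, Myl3, Mylpf and Myl6b and the kinase genes Mylk2 and Mylk4. RNA was sequenced from gastrocnemius, the large calf muscle, in 9 libraries that formed 3 groups of 3. AET_MET mice ran on a motorized treadmill for 60 minutes a day on 5 days a week over 8 weeks and drank water with metformin, an oral glucose-lowering drug, at 2 mg/mL. AET mice followed the same running schedule without metformin, and SED mice were sedentary. The labels used here give no strain, sex, age or genotype, and a group that received metformin without training was not analysed here, so a drug effect that needs training cannot be told apart from one that does not. Nothing in the labels states that the 3 samples of a group are different mice, so the tests below rest on a spread between samples that may be technical. Libraries of 1 group have names with a common stem, and a batch along these names cannot be told apart from the comparisons.

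Each myosin head carries an essential and a regulatory light chain, small proteins that stiffen the lever arm of the motor. Fast fibres use the products of Myl1 (essential) and Mylpf (regulatory), and slow fibres, like the ventricle of the heart, use those of Myl3 and Myl2. When calcium enters the fibre, calmodulin switches on skeletal myosin light chain kinase, the product of Mylk2, which phosphorylates the regulatory light chain and raises the force of later contractions; myosin phosphatase removes the phosphate. Gastrocnemius of the mouse is mostly fast muscle.

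Libraries held 15434424 to 25355877 expected counts, and the 7 genes took 0.937% to 1.25% of them. The 5 marker genes of the muscle fibre (Acta1, Ckm, Ttn, Des and Mb) summed to 124922 to 146963 CPM (counts relative to a TMM-scaled library total) in AET_MET, 138817 to 142497 CPM in AET and 130441 to 154843 CPM in SED and were abundant in every library. Of the cardiac markers, Myl7 had 0 counts in every library, and Nppa, Nppb and Tnni3 averaged under 0.1 CPM. All 6 cardiac markers summed to 3.82 to 5.55 CPM in AET_MET, 5.63 to 7.02 CPM in AET and 4.58 to 10.4 CPM in SED. Myl4 and Myh6 were the other markers of this list, and Myl4 reached 8.28 CPM in SED replicate 2. Changes are log2 fold changes ± SE from edgeR's quasi-likelihood test, and a call means an adjusted p under 0.05 (Benjamini-Hochberg, over 13944 tested genes). All 7 genes passed the filter on low counts. In bulk muscle, fewer fibres of a type and less RNA per fibre cannot be told apart.

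Per kilobase of exon, the fast light chain genes stood far above the others. Averaged over the 9 libraries, the level was 3738 CPM per kb for Mylpf and 2777 CPM per kb for Myl1. Mylk2 followed at 175 CPM per kb and Mylk4 at 91.9 CPM per kb. The slow genes lay lower, with Myl2 at 36.9 CPM per kb and Myl3 at 28.4 CPM per kb, and Myl6b was lowest at 0.416 CPM per kb. The ranges over libraries overlapped between Mylk2 and Mylk4 and between Myl2 and Myl3, and between no other neighbours in this order. Within every library Mylk2 exceeded Mylk4, by 1.21 to 2.37 times per kb, whereas the ratio of Myl2 to Myl3 per kb ran from 0.979 to 2.62. In CPM, not divided by length, Mylk4 exceeded Mylk2 and Myl1 exceeded Mylpf in every library. The order within these pairs thus rests on the union exon length. This was 2951 bases for Mylk2, 7689 for Mylk4, 1062 for Mylpf and 2074 for Myl1. The fast genes were also the steadiest. Their CPM had a coefficient of variation over the 9 libraries of 8.05% for Mylpf and 7.41% for Myl1, against 53.3% for Myl2, 59.6% for Myl3 and a median of 11.3% over the 8435 tested genes with at least 5 CPM.

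**Figure D1:**
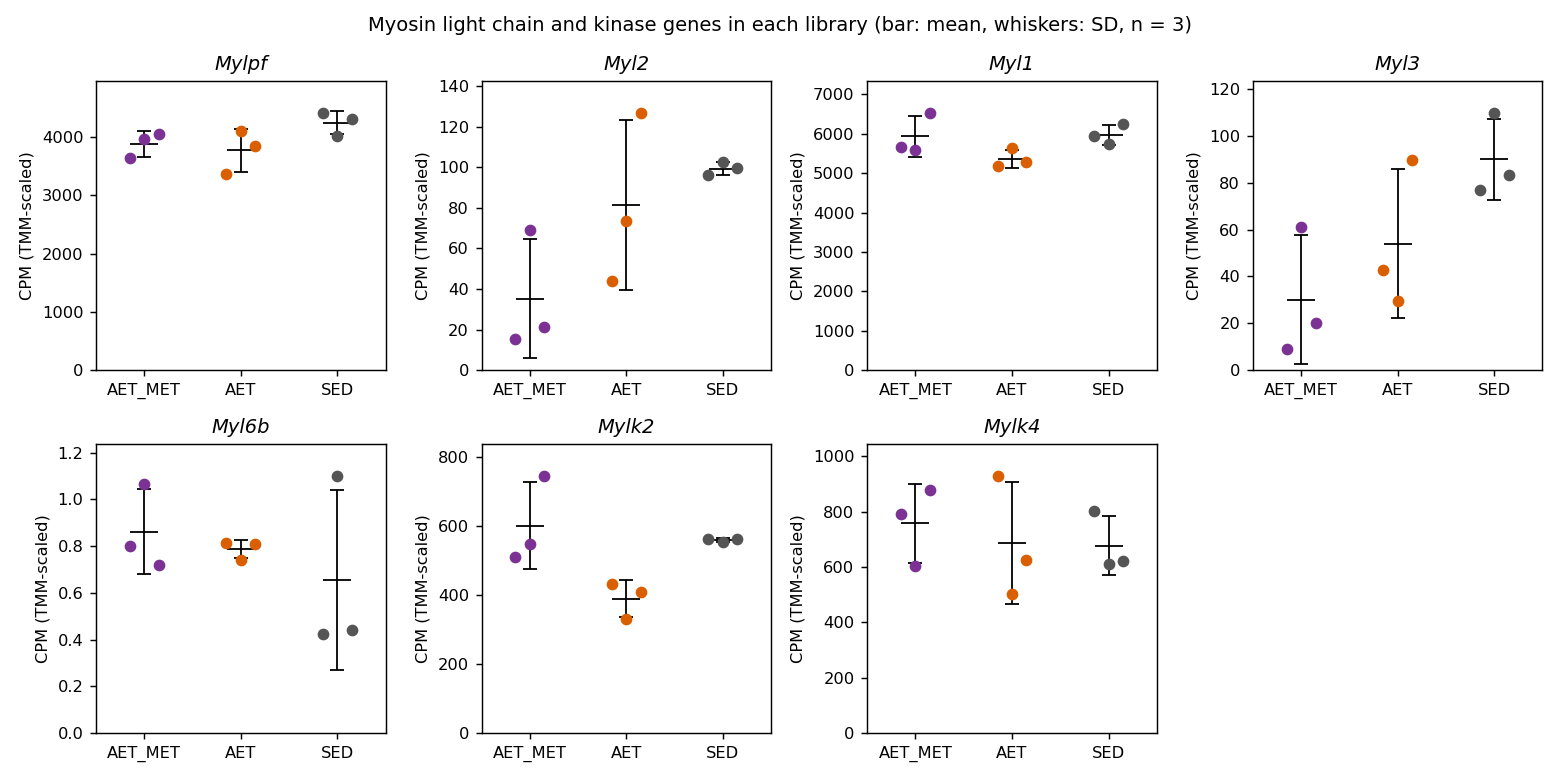
TMM-scaled CPM of the 7 genes in each library (points) with the group mean (bar) and SD (whiskers), n = 3 per group, for AET_MET, AET and SED from left to right; each panel has its own vertical axis starting at 0. Mylk2 lies at 330 to 432 CPM in the 3 AET libraries, below the libraries of both other groups, while Myl2 and Myl3 spread widely within AET_MET and AET.

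In AET_MET against SED, 0 of the 7 genes were called, where 4.59% of all tested genes were, 2.17% higher and 2.42% lower (640 genes, and 2879 at an unadjusted p under 0.05). In AET against SED, 1 of 7 was called, Mylk2, which was lower; the background was 12.3% called in either direction, 5.82% higher and 6.45% lower. In AET_MET against AET, 1 of 7 was called, again Mylk2, which was higher, where 3.43% of tested genes were called, 1.66% higher and 1.77% lower. The median log2 change of the 7 genes was -0.01 in AET_MET against SED, -0.17 in AET against SED and 0.13 in AET_MET against AET, and the median over all tested genes was 0.00, 0.01 and 0.00 in the same order. Each pair of these comparisons shares the libraries of 1 group, so they are not independent.

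**Figure D2:**
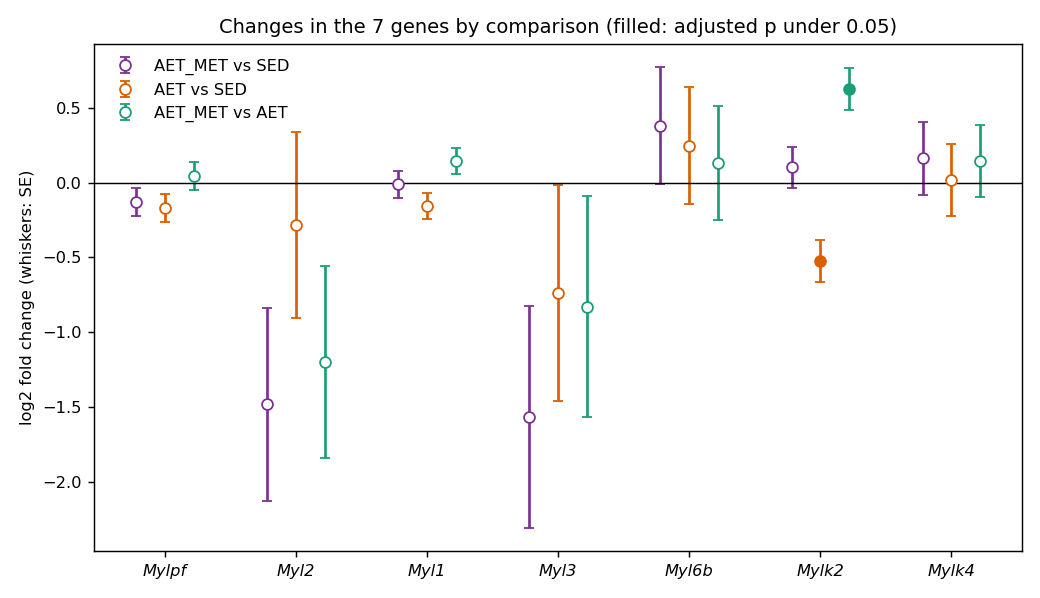
Log2 fold changes (points) with their SE (whiskers) for the 7 genes in AET_MET against SED, AET against SED and AET_MET against AET. The filled points, called at an adjusted p under 0.05, are Mylk2 in AET against SED (-0.52) and in AET_MET against AET (0.63); Myl2 and Myl3 have estimates below 0 in all 3 comparisons with the widest errors.

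The promoters of a slow and a fast light chain gene are shown. That of Myl3 was taken because it varied most among the libraries. That of Mylpf was taken because its mean level per kb of union exon length was the highest. In CPM, not divided by length, Myl1 was higher in every library. Both come from RefSeq on GRCm38.p6, read 5′ to 3′ on the plus strand, the strand of both genes. Capitals mark matches to motifs bound by muscle regulators: the CArG box (CC, 6 bases of A or T, GG), the MCAT element CATTCC, and the E-box CANNTG. The MEF2 motif was searched too, and all were searched on both strands. Myl3 is given as chr9:110763428-110763645, 218 bases, without the bases next to the RefSeq start that the GENCODE annotation places in an exon. Mylpf is given as chr7:127211358-127211607, 250 bases. Both windows lie inside the gene spans of the GENCODE annotation, which begin at 110741861 for Myl3 and 127208890 for Mylpf. Some annotated transcripts of both genes thus start upstream of the windows.
Myl3: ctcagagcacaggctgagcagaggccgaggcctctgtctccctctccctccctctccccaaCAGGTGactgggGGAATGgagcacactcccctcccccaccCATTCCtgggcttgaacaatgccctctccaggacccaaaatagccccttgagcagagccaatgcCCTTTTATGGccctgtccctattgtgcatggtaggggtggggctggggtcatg
Mylpf: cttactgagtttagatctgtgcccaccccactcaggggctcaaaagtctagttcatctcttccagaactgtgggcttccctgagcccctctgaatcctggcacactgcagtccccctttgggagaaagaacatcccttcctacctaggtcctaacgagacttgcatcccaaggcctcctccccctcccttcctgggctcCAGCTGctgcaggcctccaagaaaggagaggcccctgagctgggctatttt
The Myl3 window held 1 CArG box, 2 MCAT elements (1 on each strand) and 1 E-box, and the Mylpf window held 1 E-box. None of the matches overlapped. Among all 32851 promoter windows of the same length as that of Myl3, 1.29% held a CArG box, 11.4% an MCAT element and 61.9% an E-box. At the length of the Mylpf window, 66.2% held an E-box. A match describes letters in the window and shows no binding.

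Mylpf (GRCm38 chromosome 7, 127208890 to 127214298, plus strand, protein coding) encodes the regulatory light chain of fast fibres, a substrate of the Mylk2 kinase. It had 3637, 3974 and 4053 CPM in AET_MET replicates 1, 2 and 3, 3375, 4099.8 and 3844 CPM in AET, and 4413, 4025 and 4307 CPM in SED. The highest AET_MET and AET libraries reached into the SED range, so the groups overlapped in all comparisons. The log2 change was -0.13 ± 0.09 in AET_MET against SED (adjusted p = 0.478), -0.17 ± 0.09 in AET against SED (adjusted p = 0.247) and 0.04 ± 0.09 in AET_MET against AET (adjusted p = 0.826).

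Myl1 (chromosome 1, 66924295 to 66945404, minus strand, protein coding) encodes the fast essential light chains, isoforms made from alternative starts that are summed here. Its level was 5675, 5599.6 and 6523 CPM in AET_MET, 5191, 5630.0 and 5282 CPM in AET, and 5955, 5739 and 6245 CPM in SED. All AET libraries lay below all SED libraries, whereas AET_MET overlapped both groups. No change passed the test, with -0.01 ± 0.09 in AET_MET against SED (adjusted p = 0.960), -0.16 ± 0.09 in AET against SED (adjusted p = 0.266) and 0.14 ± 0.09 in AET_MET against AET (adjusted p = 0.366). The sign in AET_MET against SED turned with the scaling of the libraries, to 0.09 with library sizes alone.

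Myl2 (chromosome 5, 122100951 to 122113472, plus strand, protein coding) encodes the regulatory light chain of slow fibres. It had 15.5, 69.2 and 21.2 CPM in AET_MET, 44.2, 73.5 and 127 CPM in AET, and 96.0, 102 and 99.5 CPM in SED. The SED libraries lay close together and above all AET_MET libraries, while AET spanned from below SED to above it. The mean was 35.3 ± 29.5 CPM in AET_MET, 81.4 ± 41.8 CPM in AET and 99.3 ± 3.18 CPM in SED (SD, n = 3 each).
The log2 change in AET_MET against SED was -1.48 ± 0.64 and did not pass the test (adjusted p = 0.265). Without AET_MET replicate 2, the highest of its group, it was -2.44 (adjusted p = 0.0584, and up to 0.507 without another library). The estimates were -0.28 ± 0.62 in AET against SED (adjusted p = 0.805) and -1.20 ± 0.64 in AET_MET against AET (adjusted p = 0.341). In AET_MET against AET it was -2.15 without AET_MET replicate 2 and -0.73 without AET replicate 3. In AET against SED the estimate was -0.75 without AET replicate 3 and 0.01 without AET replicate 1.

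Myl3 (chromosome 9, 110741861 to 110769798, plus strand, protein coding) encodes the essential light chain of slow fibres. It had 8.94, 61.2 and 20.2 CPM in AET_MET, 42.7, 29.4 and 89.8 CPM in AET, and 77.0, 109.7 and 83.3 CPM in SED. As for Myl2, AET_MET replicates 1 and 3 were the lowest of the 9 libraries, and all AET_MET libraries lay below all SED libraries. These were 2 of the 7 genes without overlap in AET_MET against SED, both lower, where 26.8% of tested genes had no overlap and 13.4% had none and were lower.
The log2 change of Myl3 was -1.57 ± 0.74 in AET_MET against SED (adjusted p = 0.301), -0.74 ± 0.72 in AET against SED (adjusted p = 0.555) and -0.83 ± 0.74 in AET_MET against AET (adjusted p = 0.572). Without AET_MET replicate 2, the change was -2.62 against SED (adjusted p = 0.106, and up to 0.548 without another library) and -1.87 against AET. Without AET replicate 3, it was -1.32 in AET against SED and -0.24 in AET_MET against AET. Exons of Ccdc63 overlap Myl2 and exons of Pth1r overlap Myl3 on the opposite strand. Ccdc63 had 0 to 1 counts per library and Pth1r 13 to 42, against at least 145 for Myl3.

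The slow share of light chain RNA put these levels on 1 scale. Of the regulatory light chain RNA per kb (Myl2 and Mylpf), Myl2 made up 0.232%, 0.940% and 0.284% in AET_MET, 0.708%, 0.967% and 1.76% in AET, and 1.17%, 1.37% and 1.24% in SED. Of the essential light chain RNA per kb, Myl3 and Myl6b made up 0.175%, 1.12% and 0.326% in AET_MET, 0.844%, 0.542% and 1.71% in AET, and 1.30%, 1.92% and 1.34% in SED. Both shares were lower in every AET_MET library than in every SED library, and AET overlapped the other groups.
The mean regulatory share was 0.485% ± 0.394 in AET_MET, 1.15% ± 0.550 in AET and 1.26% ± 0.0987 in SED (SD, n = 3 each). The difference between AET_MET and SED was -0.775 percentage points for the regulatory share and -0.983 for the essential share, each at p = 0.1 in a two-sided exact permutation test, the smallest p that 3 against 3 libraries can give (0.3 after Benjamini-Hochberg adjustment over 6 comparisons). The other 4 comparisons had exact permutation p of 0.2 to 0.8.

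Most of the 10 slow fibre genes outside the set (Myh7, Tnnt1, Tnni1, Tnnc1, Tpm3, Atp2a2, Myoz2, Casq2, Csrp3 and Myh7b) were spread over the libraries in a similar way. The 10 genes summed to 167 to 695 CPM in AET_MET, 334 to 1205 CPM in AET and 763 to 936 CPM in SED. None of the 10 was called in any comparison. Their median log2 change was -1.11 in AET_MET against SED, -0.32 in AET against SED and -0.76 in AET_MET against AET, and their estimates lay below 0 for 10, 8 and 9 genes. AET_MET replicate 1 had the lowest level of 6 of these genes, and AET replicate 3 the highest of 7. Myh7, encoding the slow myosin heavy chain, had 2.28, 265 and 99.2 CPM in AET_MET, 131, 84.1 and 534 CPM in AET, and 253, 323 and 279.5 CPM in SED. In AET_MET replicate 1 Myl2 exceeded Myh7 by 30.1 times per kb, against 0.945 to 3.86 times in the other 8 libraries. Tnni1 and Tnnc1, slow troponin genes, were at 0.740 and 0.802 CPM there. The part of this spread in the Myl2 and Myl3 values was not tested. The 10 fast fibre genes held within a median of 1.30 times between the highest and the lowest library, and none was called. The widest ranges were those of Myh1 (4.33 times) and Myh2 (3.93 times), heavy chain genes of fast fibres, and Myh2 lay lower in every AET_MET library than in every AET and SED library, at -0.99 ± 0.33 against AET (adjusted p = 0.142) and -0.83 ± 0.33 against SED (adjusted p = 0.209). The median log2 change of the 10 genes was -0.08 in AET_MET against SED, -0.03 in AET against SED and -0.07 in AET_MET against AET. Of 8 myosin heavy chain genes, 0 were called in each comparison, with median log2 changes of -0.78, 0.07 and -0.64 in the same order. These medians weigh each gene alike, whatever its level. Myh4, the most abundant at 65663 to 88558 CPM, changed by -0.03 ± 0.12, 0.02 ± 0.12 and -0.05 ± 0.12. The 8 genes summed to 74380 to 83824 CPM in AET_MET, 75548 to 93719 CPM in AET and 73680 to 88582 CPM in SED.

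**Figure D3:**
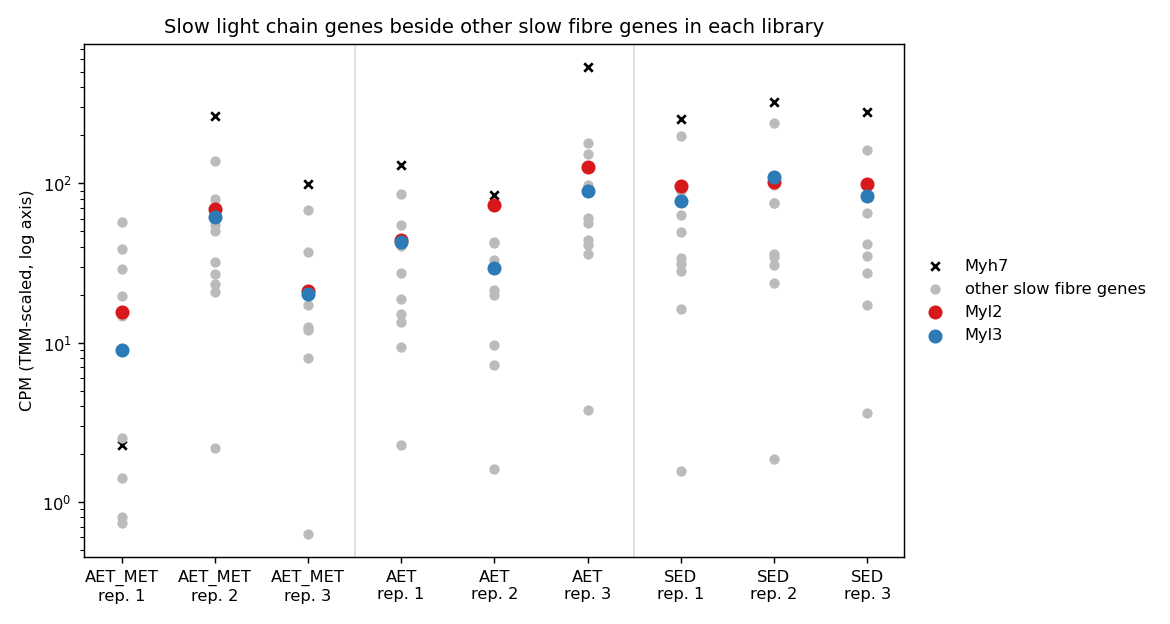
TMM-scaled CPM on a log axis of Myl2, Myl3, Myh7 and the 9 other slow fibre genes in each of the 9 libraries, AET_MET left, AET middle, SED right. AET_MET replicate 1 is lowest for Myl2, Myl3 and Myh7 (2.28 CPM), while the 3 SED libraries lie at 253 to 323 CPM for Myh7 and 96.0 to 102 CPM for Myl2.

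Myl6b (chromosome 10, 128494157 to 128498685, minus strand, protein coding), a further slow-type essential light chain gene, was low, with 9 to 25 counts per library. It had 0.802, 1.07 and 0.718 CPM in AET_MET, 0.811, 0.742 and 0.811 CPM in AET, and 0.425, 1.10 and 0.440 CPM in SED. SED replicate 2 was the highest library and the other SED libraries were the lowest, so the groups overlapped. Of the 5 markers of developing or regenerating fibres, 4 were also highest in SED replicate 2, and the list summed to 22.3 to 31.1 CPM in AET_MET, 30.3 to 32.1 CPM in AET and 27.7 to 86.9 CPM in SED. The other marker, Myod1, was called higher in AET_MET against SED (adjusted p = 0.0269) and against AET (adjusted p = 0.0370). The part of these markers in the Myl6b level was not tested. The estimates were 0.38 ± 0.39 in AET_MET against SED, 0.25 ± 0.39 in AET against SED and 0.13 ± 0.38 in AET_MET against AET, with adjusted p of 0.634, 0.717 and 0.873.

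Mylk2 (chromosome 2, 152911352 to 152923068, plus strand, protein coding), encoding the skeletal muscle light chain kinase, was lower in AET than in SED and higher in AET_MET than in AET. It had 512, 547 and 746 CPM in AET_MET, 432, 329.8 and 408 CPM in AET, and 564, 554 and 564 CPM in SED. All AET libraries lay below every other library, the SED libraries lay between 554 and 564 CPM, and AET_MET ranged from below SED to well above it. The means were 602 ± 126 CPM in AET_MET, 390.0 ± 53.5 CPM in AET and 561 ± 5.55 CPM in SED (SD, n = 3 each).
Mylk2 fell in AET against SED, by 0.52 ± 0.14 on the log2 scale (edgeR adjusted p = 0.0297), to 0.695 of the SED level. It rose in AET_MET against AET, by 0.63 ± 0.14 (adjusted p = 0.0338), to 1.54 times the AET level. In AET_MET against SED it stood at 0.10 ± 0.14 (adjusted p = 0.728), and the sign turned to -0.09 without AET_MET replicate 3. The libraries did not overlap in AET against SED or in AET_MET against AET, which made 2 of 7 members without overlap in AET against SED, Mylk2 and Myl1, both lower, and 1 of 7 in AET_MET against AET. Over all tested genes, 32.7% had no overlap in AET against SED, 16.4% higher and 16.3% lower, and 27.9% had none in AET_MET against AET, where 14.7% were without overlap and higher.
Some marker genes also moved in AET. Acta1, the skeletal actin gene, had 13910.5, 14018 and 16201 CPM in AET_MET, 11397, 13106.5 and 14371 CPM in AET, and 16489.8, 17092 and 16821 CPM in SED, and fell in AET against SED by 0.37 ± 0.10 on the log2 scale (adjusted p = 0.0295). The 3 Schwann cell markers summed to 10.5 to 25.7 CPM in AET_MET, 29.7 to 51.5 CPM in AET and 13.5 to 16.5 CPM in SED, without overlap between AET and the other groups, and S100b and Sox10 were called higher in AET against SED. The 3 endothelial markers summed to 137 to 164 CPM in AET_MET, 175 to 206 CPM in AET and 159 to 179.6 CPM in SED, where AET and SED overlapped, and 1 of them, Kdr, was called, higher in AET against SED and lower in AET_MET against AET. The part of these genes in the Mylk2 levels was not tested.
The direction of both Mylk2 changes was the same whichever library was left out, but the calls were not. In AET against SED the call was kept without any 1 AET_MET library and lost without any 1 AET or SED library, with adjusted p of 0.0521 to 0.0907. Over all alternatives the adjusted p ran from 0.00336 to 0.0907 there, and from 0.000651 to 0.118 in AET_MET against AET. In AET_MET against AET, among the 9 fits without 1 library, the call was kept only without AET_MET replicate 1 (adjusted p = 0.0446); without AET_MET replicate 3, the highest, the change was 0.44 (adjusted p = 0.118). It was also lost when only the AET_MET and AET libraries were fitted (adjusted p = 0.0744).

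**Figure D4:**
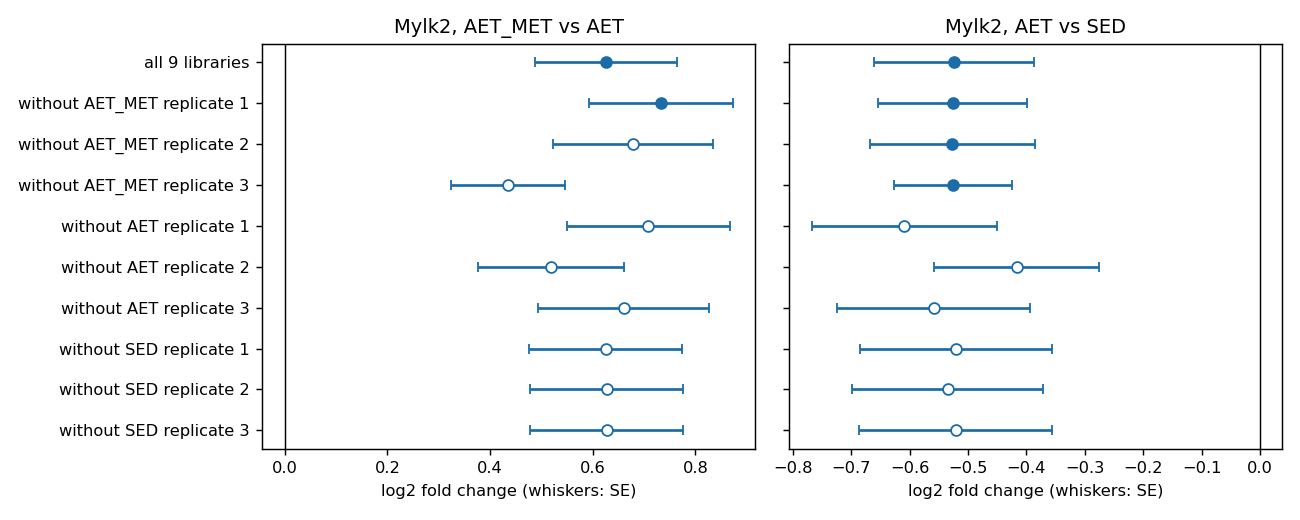
Log2 fold change of Mylk2 (points) with its SE (whiskers) with all 9 libraries and without each library in turn, in AET_MET against AET (left) and AET against SED (right); filled points have an adjusted p under 0.05. Every estimate lies on the same side of 0, from 0.44 to 0.73 on the left and from -0.61 to -0.42 on the right, and 1 and 3 of the 9 left-out fits are filled.

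Mylk4 (chromosome 13, 32700834 to 32783954, minus strand, protein coding) encodes another member of the myosin light chain kinase family. It had 791, 602 and 879.5 CPM in AET_MET, 929, 501 and 624 CPM in AET, and 800.4, 609 and 621 CPM in SED. The AET group held both the highest and the lowest of the 9 libraries, and all groups overlapped. The log2 change was 0.16 ± 0.24 in AET_MET against SED (adjusted p = 0.761), 0.02 ± 0.24 in AET against SED (adjusted p = 0.971) and 0.15 ± 0.24 in AET_MET against AET (adjusted p = 0.773). Whether the Mylk2 and Mylk4 changes differed from each other was not tested.

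Of the other kinases of the family, Mylk, the kinase of smooth muscle and non-muscle cells, averaged 33.9 ± 6.95 CPM in AET_MET, 49.3 ± 12.7 CPM in AET and 34.5 ± 4.40 CPM in SED (SD, n = 3 each). It was not called, with a log2 change of 0.51 ± 0.21 in AET against SED (adjusted p = 0.150) and -0.54 ± 0.21 in AET_MET against AET (adjusted p = 0.186). Mylk3, the cardiac kinase, was too low to test. The 6 smooth muscle and pericyte markers summed to 488 to 585 CPM in AET_MET, 582 to 691 CPM in AET and 496 to 584 CPM in SED. Rgs5 was the largest part of each sum, at 315 to 388 CPM. Of the 6, only Acta2 was called, higher in AET against SED. Their median log2 change was 0.01 in AET_MET against SED, 0.75 in AET against SED and -0.72 in AET_MET against AET. Estimates lay below 0 for 3, 2 and 5 of them in the same order. Their part in the Mylk levels was not tested.

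Calm2, a gene of calmodulin, which activates light chain kinases, rose in both trained groups against SED. Calm2 had 125, 107 and 139 CPM in AET_MET, 157, 129.6 and 124 CPM in AET, and 71.5, 54.1 and 53.7 CPM in SED. All trained libraries exceeded all sedentary ones. Over all tested genes, 13.4% were without overlap and higher in AET_MET against SED, and 16.4% in AET against SED. The log2 change was 1.05 ± 0.14 in AET_MET against SED (adjusted p = 0.00371) and 1.19 ± 0.14 in AET against SED (adjusted p = 0.000566), and the estimate was -0.14 ± 0.13 in AET_MET against AET (adjusted p = 0.587). Both calls were kept whichever library was left out. Calm3 averaged 278 ± 17.1 CPM in AET_MET, 297 ± 17.9 CPM in AET and 279 ± 28.0 CPM in SED and was not called.

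Of 7 myosin phosphatase genes, 1 was called lower in both trained groups against SED and none was called higher. Of all tested genes, 2.42% were called lower in AET_MET against SED and 6.45% in AET against SED. Ppp1r12b, encoding the targeting subunit found in striated muscle, had 276, 289 and 268 CPM in AET_MET, 296, 269 and 300.3 CPM in AET, and 364, 367 and 346 CPM in SED. The highest trained library lay below the lowest sedentary one. Over all tested genes, 13.4% were without overlap and lower in AET_MET against SED, and 16.3% in AET against SED. Ppp1r12b fell by 0.37 ± 0.08 on the log2 scale in AET_MET against SED (adjusted p = 0.0169) and by 0.32 ± 0.08 in AET against SED (adjusted p = 0.0182). The call in AET_MET against SED was lost without AET_MET replicate 1, AET_MET replicate 3 or SED replicate 2 (adjusted p = 0.0626 to 0.0875) and with library sizes alone (adjusted p = 0.0646). The call in AET against SED was lost without AET replicate 2, SED replicate 1 or SED replicate 2 (adjusted p = 0.0523 to 0.0646). Ppp1cb, the catalytic subunit of the enzyme, averaged 291 ± 2.59 CPM in AET_MET, 292 ± 13.4 CPM in AET and 299 ± 12.5 CPM in SED, and was not called. The 3 fibroblast markers summed to 466 to 543 CPM in AET_MET, 499 to 573 CPM in AET and 645 to 861 CPM in SED, Col1a1 being called lower in AET_MET against SED and Dcn lower in AET against SED, and their part in the Calm2 and Ppp1r12b changes was not tested. The median log2 change of the 7 phosphatase genes was -0.02 in AET_MET against SED, -0.04 in AET against SED and -0.06 in AET_MET against AET.

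**Figure D5:**
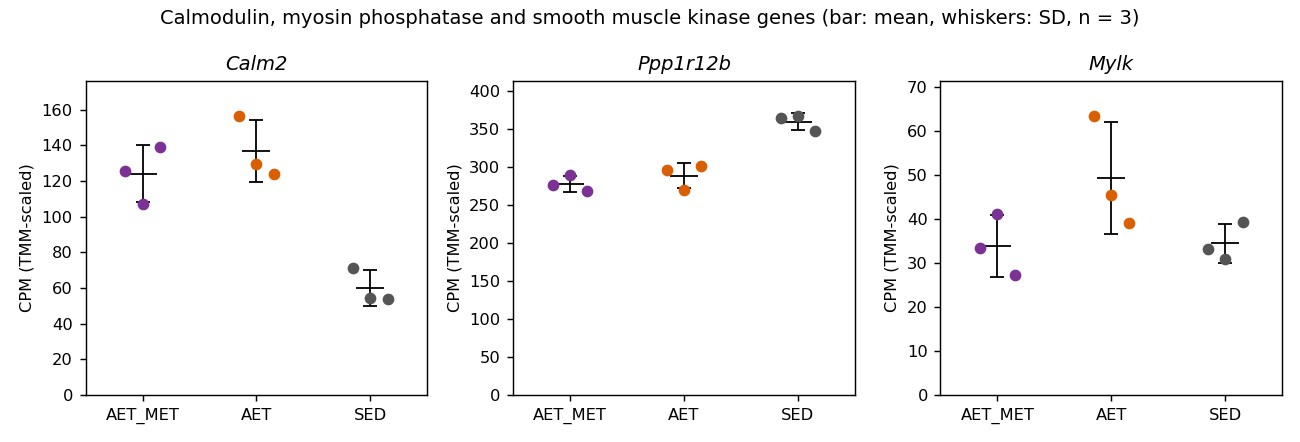
TMM-scaled CPM of Calm2, Ppp1r12b and Mylk in each library (points) with the group mean (bar) and SD (whiskers), n = 3 per group. Calm2 lies at or above 107 CPM in all AET_MET and AET libraries and at or below 71.5 CPM in SED, Ppp1r12b lies below its SED level in both trained groups, and the Mylk groups overlap.

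The list of other light chain genes gave 7 tested identifiers. Their median log2 changes were -0.40 in AET_MET against SED, 0.25 in AET against SED and -0.32 in AET_MET against AET. Of all tested genes, 5.82% were called higher in AET against SED, 2.42% lower in AET_MET against SED and 1.77% lower in AET_MET against AET. In AET against SED, 2 were higher: Myl9, the smooth muscle regulatory light chain gene, averaged 43.9 ± 7.24 CPM in AET and 27.4 ± 1.66 CPM in SED (log2 change 0.68 ± 0.16, adjusted p = 0.0259), and Myl6, an essential light chain gene of non-muscle and smooth muscle cells, averaged 61.5 ± 1.69 CPM in AET and 50.9 ± 3.49 CPM in SED (0.27 ± 0.07, adjusted p = 0.0296). The Myl9 call was lost without AET replicate 1 or 2 or any 1 SED library (adjusted p = 0.0609 to 0.0981), and the Myl6 call without any 1 AET library, SED replicate 1 or SED replicate 3 (adjusted p = 0.0580 to 0.123). With no filter both were lost (adjusted p = 0.0875 for Myl9 and 0.0532 for Myl6), and Myl6 also with library sizes alone (adjusted p = 0.0509) and with only the AET and SED libraries (adjusted p = 0.0554). Myl9 is also a gene of vessel walls, whose smooth muscle and pericyte markers are given above; their part in its level was not tested. In AET_MET against SED and against AET, 1 identifier was lower, one of the pair that carry Myl12b, a non-muscle regulatory light chain gene. It averaged 16.1 ± 2.34 CPM in AET_MET, 27.4 ± 3.32 CPM in AET and 23.1 ± 2.34 CPM in SED, a log2 change of -0.51 ± 0.12 against SED (adjusted p = 0.0361) and -0.76 ± 0.12 against AET (adjusted p = 0.0125). The call against SED was lost without AET_MET replicate 1 or 2, AET replicate 3 or SED replicate 2 or 3 (adjusted p = 0.0549 to 0.137) and with library sizes alone (adjusted p = 0.0526), and that against AET without AET_MET replicate 1 or AET replicate 3 (adjusted p = 0.0540 to 0.0671). The other Myl12b identifier averaged 8.61 ± 1.00 CPM in AET_MET and 7.72 ± 1.58 CPM in SED and was not called; the pair overlap in the genome, and how reads were assigned between them is not stated, so the Myl12b value is uncertain.

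The genes whose log2 CPM followed each member most closely over the 9 libraries were ranked by Pearson's r among the 8435 genes with at least 5 CPM. For Myl3 they were Gm47547 (r = 0.981), Atp2a2, the calcium pump of slow fibres (0.976), and Tnnt1, slow troponin T (0.973). For Myl2 they were Mpi (0.966), Slco3a1 (0.953) and Gfm2 (0.949). For Myl1 they were Aldoa, a glycolytic aldolase (0.972), Acyp1 (0.948) and Gm12224 (0.927), and for Mylpf they were Rtca (0.960), Eif2s3y (0.948) and Pno1 (0.942). For Mylk2 they were Trpc4ap (0.962), Phf20l1 (0.960) and Snd1 (0.957), and for Mylk4 they were Zbtb1 (0.943), Tlk1 (0.939) and Osbp (0.918). For Myl6b they were Tkt (0.977), Arhgap10 (0.898) and Znhit3 (0.898). The libraries share groups, scaling and depth, and the best of so many genes is high by choice, so these are descriptions of the 9 libraries.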

How the data were processed

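The deposited table holds expected counts per gene, estimated by the authors, in a column for each library. Per the submitters' processing notes, the tools were RSEM 1.3.0, STAR 2.5.3a and edgeR 3.34.0 and the build GRCm38, with no roles given. The annotation, strand setting and filters of the counting are not stated, so overlapping genes cannot be told apart. Between 4.85% and 5.53% of values were not whole, and all were rounded. Symbols came from GENCODE M21 (52083 of 55416 identifiers). edgeR 4.0.16 in R 4.3.3 was run with filterByExpr, TMM scaling and the robust quasi-likelihood test on all 9 libraries with group as the only term, leaving 6 residual degrees of freedom. CPM are TMM-scaled, and CPM per kb divides them by the union exon length, which assumes even coverage. DESeq2 1.42.0, other scalings and filters, a replicate block and leaving out each library were alternatives. The script was tested on simulated data. Counts of replicates differed beyond sampling noise, so none was merged. RefSeq promoter windows matched 6 of the 7 genes. Genes named are the 7 members, the called genes of the lists with up to 3 others each, and the 3 most alike by r for each member. The slow fibre, fibre marker and cardiac marker lists are spelled out beyond this. Myh7 is given by library, and Tnni1 and Tnnc1 for AET_MET replicate 1 alone, because they accompany the Myl2 and Myl3 values. The members and lists were chosen with earlier results of these data known. Some results are not reported here.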

Additional observations from a re-analysis of the deposited data

Results flagged for a closer look

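Mylk2 was singled out because its log2 changes with and without metformin differed in the comparison of AET_MET with AET given above. All 7 genes had that test. The choice was made on these same data, so the values below repeat that result. Against the same SED libraries, its log2 change was 0.10 ± 0.14 in AET_MET and -0.52 ± 0.14 in AET, and the difference between these effects, which is the comparison of AET_MET with AET, was 0.63 ± 0.14 (edgeR adjusted p = 0.0338, n = 3 libraries per group). All 3 AET_MET libraries exceeded all 3 AET libraries. Of the fits that left out 1 library, 1 of 9 kept an adjusted p under 0.05.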

How the results depend on the processing

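Of 396 values of the 7 genes under an alternative, 367 kept their direction and side of the threshold, 15 lost a call, 0 gained one and 14 changed sign, none of them a called value. Only Mylk2, in AET against SED and in AET_MET against AET, had a call to lose. In AET against SED it was kept in 3 of 9 fits without 1 library and in 10 of 10 other alternatives. In AET_MET against AET it was kept in 1 of 9 and 9 of 10. Mylk2 kept both calls with the other scalings and filters, DESeq2 and the replicate block. In AET_MET against AET the members called were 0 when only the 2 groups compared were fitted. Leaving out 1 library gave 0 to 1 members called in AET_MET against AET and 0 to 1 in AET against SED. Genes called over the whole table ranged, without 1 library, from 141 to 655 in AET_MET against SED, 934 to 1509 in AET against SED and 23 to 461 in AET_MET against AET. The last count was 767 with library sizes alone (611 higher), 731 with no filter and 880 with DESeq2, against 478 with none of these changes. Library sizes alone moved the median log2 change of all genes to 0.10 in AET_MET against SED (684 of 860 called genes higher, against 303 of 640). Upper-quartile scaling gave 980 of 1691 called genes higher in AET against SED, against 812 of 1712. The sign of Myl1 in AET_MET against SED turned to 0.089 with library sizes alone and to 0.0159 with upper-quartile scaling, and ran from -0.0926 to 0.0208 without 1 library. The sign of Mylk4 in AET against SED turned to -0.0161 under the replicate block and ran from -0.271 to 0.198 without 1 library. Other signs that turned without 1 library were those of Myl6b (-0.0679 to 0.248), Mylpf (-0.0307 to 0.107) and Mylk4 (-0.0364 to 0.429) in AET_MET against AET, Mylk2 in AET_MET against SED (-0.0903 to 0.206), Myl2 in AET against SED (-0.755 to 0.00507), and the slow regulatory share, AET minus SED (-0.423 to 0.105 percentage points). The cause was not tested. Deviations of same-numbered libraries correlated at -0.0509 to 0.184, and those of differently numbered libraries at -0.172 to 0.140. Between AET and SED, the same-numbered pairs correlated at 0.0262 to 0.110, above all differently numbered pairs. These correlations cannot decide whether the replicate numbers pair the samples. The replicate block gave 535, 1530 and 358 genes called in AET_MET against SED, AET against SED and AET_MET against AET. With 3 libraries a group, the exact tests could not pass the threshold. Myl6b had 9 to 25 counts per library.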
